A study of Mus musculus with 8 samples.

Results

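The 82 genes described here are those for the nuclear-encoded subunits of mitochondrial oxidative phosphorylation, chosen by symbol alone. They are the protein-coding genes of the deposited table whose symbols begin with Nduf and a, b, c, s or v before a digit, with Uqcr, with Cox and a digit from 4 to 8, or with Atp5, together with Sdha, Sdhb, Sdhc, Sdhd and Cyc1. They were taken from 22200 genes in all. By symbol, 36 belong to complex I, 4 to complex II, 8 to complex III, 17 to complex IV and 17 to complex V. The symbols also take in a few genes whose products are not subunits in the strict sense. Cox4nb is a neighbour of Cox4i1 on the chromosome and codes for a subunit of a membrane protein complex of the endoplasmic reticulum, Cox7a2l is a factor for respiratory supercomplexes, Atp5s codes for a coupling factor, and Atp5sl was named for its likeness to Atp5s. Ndufa4, counted here with complex I by its symbol, has since been assigned to complex IV.

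The cells were immortalised mouse embryonic fibroblasts (MEFs) on the C57BL/6 background, and every library carries the genotype label TAF4-/-, for loss of TAF4, which belongs to the general transcription machinery as part of TFIID. The 3 groups were untreated cells at 12 h (3 libraries), cells given retinoic acid (RA) for 12 h (3 libraries) and cells given RA for 72 h (2 libraries). There was no untreated group at 72 h, so RA and time in culture cannot be told apart in any comparison with the 72 h libraries. The study derived its TAF4-null line C3 by Cre from 1 floxed MEF line, and no other genotype enters these comparisons. It also reports its growth phenotype in 2 independent null lines, and a return of contact inhibition when TAF4 was expressed again. The sample titles hold cl1, close to C1, the study's name for its TAF4-expressing line.

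Complexes I to IV pass electrons from NADH and succinate to oxygen, and complexes I, III and IV pump protons across the inner mitochondrial membrane as they do so. Complex V, the ATP synthase, uses the returning protons to make ATP. Most subunits are encoded in the nucleus, a small hydrophobic core is encoded in mitochondrial DNA, and genes of both sets are active in practically every cell type, fibroblasts included.

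All values are normalised reads per gene on a scale where every library has the same set of values, with 1 as the lowest and a total of 9442018.6. Each library therefore has the same nominal depth, and its true depth is unknown. Taf4a itself was listed between 983.8 and 1449.2 normalised reads in all 8 libraries, although they are labelled TAF4-/-. Whether its reads lie outside the deleted part was not tested, and the genotype is given here as labelled. Of 10 fibroblast markers 9 passed the filter on low values. Vim, for an intermediate filament protein, had group means from 89717.0 to 105234.3, whereas Thy1 stayed at or below a group mean of 2.08. Summed over their lists, markers of muscle, epithelium, endothelium, blood and neural cells reached at most 171.4, 38.1, 79.0, 65.6 and 39.1 normalised reads in any library. Brown fat markers summed to between 187.6 and 237.4 in untreated cells, 376.0 and 428.6 at RA 12 h and 587.8 and 623.0 at RA 72 h. That rise was in Pparg and Fabp4, while Ucp1 and Cidea, which define brown fat, and Adipoq, a marker of fat cells in general, had group means of at most 3.67. Replicates differed along 1 shared axis, to which 50.1% of the variance within groups belonged. Its side 1 held the first and second untreated libraries, the third of RA 12 h and the second of RA 72 h, and its side 2 held the other 4.

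By the labels, each messenger RNA was read as a short tag beside a site of the restriction enzyme DpnII, which cuts at GATC, whereas the study's methods describe fragmented RNA. The tag that the labels lead to was therefore read from the longest annotated protein-coding transcript of each gene, as the GATC nearest the 3′ end and the 17 bases after it, on the mouse assembly NCBIM37 (mm9). The sequences below are shown as examples of what each value may have been read from, among members with high and with low values. GATC is in capitals, and every sequence runs 5′ to 3′ along the transcript. The first group holds the members called in a comparison, and the second holds members with high values whose tag was found nowhere else in the genome.
Ndufb6: GATCaacatcattgaagagtc
Ndufa5: GATCaccaacgagaagctgga
Uqcrh: GATCtgcaaacttg
Atp5f1: GATCataatttgaataagcaa
Cox7b: GATCtgtcatacttcctagta
Sdhb: GATCgactccagagacgactt
Uqcrc2: GATCctcatggagttcctgct
The tags of Ndufb6 (chr4:40217806-40217826, minus strand), Ndufa5 (chr6:24472672-24472692, minus strand), Sdhb (chr4:140533307-140533327, plus strand) and Uqcrc2 (chr7:127786543-127786563, plus strand) lie in coding exons. Those of Atp5f1 (chr3:105745710-105745730, minus strand) and Cox7b (chrX:103217731-103217751, plus strand) lie in 3′ untranslated regions. The last site of Uqcrh (chr4:115739570-115739583, minus strand) is in its 3′ untranslated region too, and only 14 bases were left to the annotated end of the transcript, so a full tag of 21 bases could not be read.

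The next tags belong to subunits that were near the lowest value of the table, or that were high although their tag also occurs elsewhere.
Cox5b: GATCatgatagcagcacagaa
Cox7c: GATCtgaaaattggattaaac
Atp5h: GATCttcccagaaaccaagct
Atp5l: GATCataggcaaacgtggcat
Uqcr: GATCctggactgggtgcctta
Cox8a: GATCatgttattcaattccag
Cox7a2: GATCaatatttattgatgtgt
Ndufb4: GATCcttgggaacgtgagctg
The tag of Cox5b (chr1:36749102-36749122, plus strand, coding) matched 2 places in the genome without a mismatch, its own gene included. The corresponding numbers were 6 for Cox7c (chr13:86184472-86184492, minus strand, 3′ untranslated), 4 for Atp5h (chr11:115277114-115277134, minus strand, coding), 9 for Atp5l (chr9:44721470-44721490, minus strand, coding) and 2 for Uqcr (chr10:79866942-79866962, minus strand, coding). The second place of the Uqcr tag and 4 of the 8 other places of the Atp5l tag lie in annotated pseudogenes. The tags of Cox8a (chr19:7289768-7289788, minus strand) and Cox7a2 (chr9:79603247-79603267, minus strand), both in 3′ untranslated regions, also matched 2 places each, but these genes were among the highest of all. The tag of Ndufb4 (chr16:37647337-37647357, minus strand, 3′ untranslated) was found nowhere else, and yet Ndufb4 was low.

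The levels of the subunit genes were spread widely. The mean over the 8 libraries was at least 1000 normalised reads in 40 of the 82, from 200 to 1000 in 9, from 10 to 200 in 14 and below 10 in 19. Together the 82 genes held between 2.27% and 2.40% of all normalised reads. Per kb of exon, the median level was 249.6 normalised reads in complex I, 734.6 in complex II, 2066.6 in complex III, 55.2 in complex IV and 159.2 in complex V. Without division by length the medians were 449.6, 2380.4, 2807.0, 272.2 and 303.7 normalised reads, in the same order of complexes. Both medians of complex IV are the values of Cox4nb, which is not a subunit of it. Its genes Cox4i2, Cox6a2, Cox6c and Cox7a1 have no DpnII site in their longest transcript, whereas every gene of complexes II and III has one. The medians therefore do not rank the complexes by expression. The 4 genes of complex II ranged from 622.4 to 1249.5 per kb, whereas the 17 of complex IV ran from 2.11 for Cox7c to 26150.1 for Cox8a. A range tends to widen with the number of genes. The tags of all complex II genes were found nowhere else, and those of Cox7c and Cox8a were not, so the ranges are a description only.

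**Figure D1:**
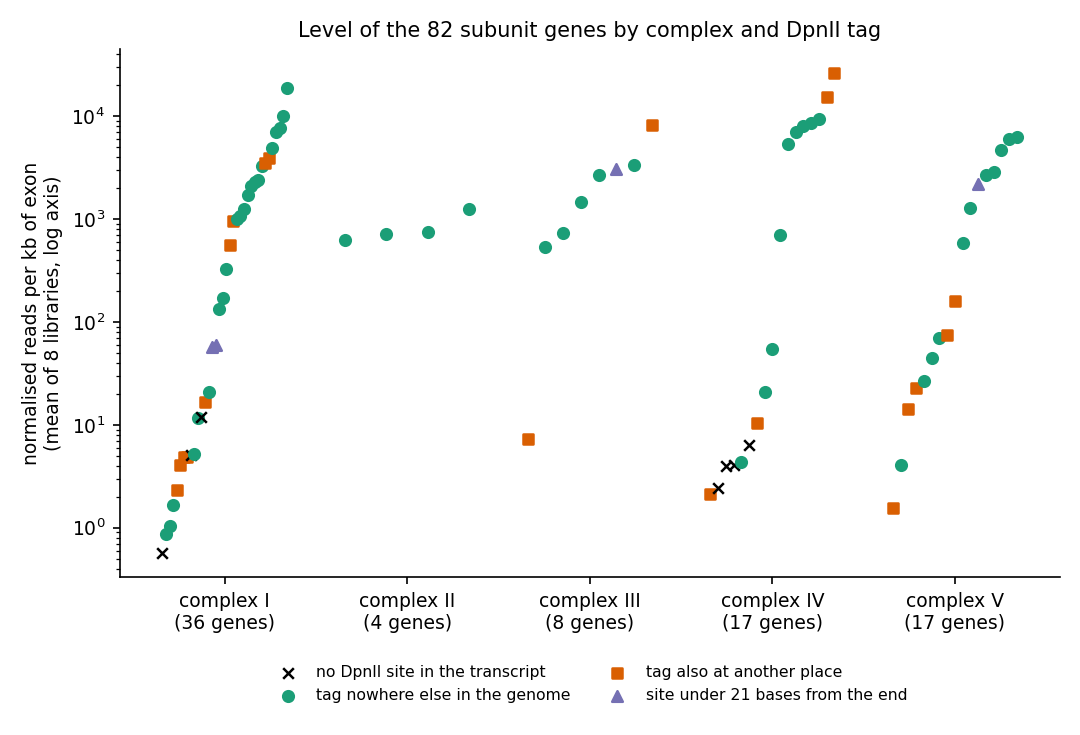
Mean level of each of the 82 genes over the 8 libraries, in normalised reads per kb of exon on a log axis, by complex, with 1 point per gene. Shapes and colours give the class of the DpnII tag: the 7 genes with no site (crosses) lie at or below 11.9 per kb, while genes whose tag occurs nowhere else (green circles) have a median of 1247.6.

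The levels ran along with the tag, whose part in them was not tested. In 7 members the longest transcript held no GATC at all. These were Ndufa1, Ndufb7 and Ndufc2 of complex I and Cox4i2, Cox6a2, Cox6c and Cox7a1 of complex IV, and their means lay between 1.45 and 14.6 normalised reads. In 20 members the tag also matched another place, and 8 of them had a mean below 10 (Atp5h, Cox5b, Cox7c, Ndufa13, Ndufb11, Ndufs5, Ndufs6 and Uqcr), while another 8 had a mean of at least 200, and 6 of those of at least 1000. The tag was found nowhere else for 51 members, of which 39 had a mean of at least 200, 32 of them of at least 1000, and 5 a mean below 10 (Cox6b2, Ndufa4l2, Ndufa11, Ndufb2 and Ndufb4). The median level per kb was 4.1 normalised reads without a site, 19.9 with a tag found elsewhere too and 1247.6 with a tag found nowhere else. In the other 4, the last site lay under 21 bases from the transcript's end, and they ranged from 54.4 for Ndufs8 to 9318.8 for Atp5b. Over the protein-coding genes of the whole table, 78.4% of the 301 without a site had a mean below 10, against 59.5% with 1 site, 50.5% with 2 to 4 and 29.0% with 5 or more. Genes without a site have short transcripts. Among transcripts of at most 700 bases the shares below 10 were 86.7% without and 72.6% with a site.

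The 19 members with a mean below 10 were not tested, although several of them code for subunits found in these complexes in every tissue. Cox5b, a nuclear-encoded subunit of cytochrome c oxidase, was listed at 9.88, 7.25 and 11.2 normalised reads in untreated cells, at 1.75, 4.88 and 1.00 at RA 12 h and at 2.50 and 9.12 at RA 72 h. Per kb of exon its mean was 10.5, whereas its partner subunits Cox4i1 and Cox5a stood at 8053.3 and 7028.5. Cox7c ranged from 1.00 to 4.88 and Atp5h, of the peripheral stalk of ATP synthase, from 1.00 to 3.75. Uqcr, the smallest subunit of complex III, ranged from 2 to 9. Cytochrome c itself, Cycs, which is no member, was also listed at between 1 and 2.

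Isoform pairs were read at very unequal levels. Of the ATP synthase subunit c genes, which encode the same mature protein, Atp5g3 had a mean of 13001.6 normalised reads, or 5961.3 per kb of exon. Atp5g1 and Atp5g2 had means of 20.2 and 48 normalised reads, or 4.11 and 74.2 per kb, and the tag of Atp5g2 matched 4 places in the genome. The gap per kb between Atp5g1 and Atp5g2 comes mostly from their exonic lengths of 4908 and 647 bases. Cox4i1 stood at 8053.3 per kb and Cox4i2, the isoform known for its response to low oxygen, at 6.38, but the latter has no DpnII site in its longest transcript. The muscle and heart isoforms Cox6a2 and Cox7a1, which have none either, were at 2.45 and 3.99 per kb, against 5346.4 for Cox6a1 and 15312.3 for Cox7a2. Cox6b2, the testis isoform, has a tag found nowhere else and was at 4.37 per kb, against 8638.0 for Cox6b1. Likewise Ndufa4l2, which is known to be induced by hypoxia, was at 1.66 per kb and Ndufa4 at 7029.6. Cox8b and Cox8c are not analysed here.

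RA for 12 h was compared with untreated cells of the same time, which asks whether the early response to RA reached the subunit genes. Among the 63 members tested, 0 were called higher and 0 lower (limma, adjusted p below 0.05), against 2.87% higher and 1.5% lower of all 12673 genes tested. By the unadjusted p, 5 members (7.94%) passed 0.05, against 16.3% of all genes. By the rule that also asks for a change of 2-fold, 0 members passed, against 1.42% of all genes. The median log2 change of the members was -0.011, and that of all genes tested -0.016. For 59 of the 63 members the 95% interval of the change lay within 2-fold in both directions, and for 49 within 1.5-fold. Among all genes tested, 85.5% had an interval within 2-fold. These are bulk libraries, in which fewer cells of a kind and less RNA per cell cannot be told apart. The 4 members with wider intervals were among the 14 whose mean lay between 10 and 200. In the 49 members with a mean of at least 200, log2 changes ran from -0.35 for Cox7a2 to 0.30 for Cox7a2l. Cell type markers moved at 12 h already. Of 9 fibroblast markers tested 1 was higher (Pdgfra, 1.49 on the log2 scale) and 1 lower (Fbn1, -0.67). Of the 2 brown fat markers tested 1 was higher (Pparg, 1.34). Their part in the result was not tested.

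RA for 72 h was compared with untreated cells at 12 h, which asks about the later response but mixes it with time. One member, Ndufb6, was higher and 0 were lower (1.59% and 0%), against 6.08% and 5.41% of all genes tested. By the unadjusted p, 4 members (6.35%) passed, against 23.9% of all genes, and 0 passed the rule with 2-fold, against 3.67%. The median log2 change was -0.002 for members and -0.020 for all genes. The 95% interval lay within 2-fold for 57 of 63 members (90.5%), against 76.6% of all genes. Cell type markers moved in the same comparison: of 9 fibroblast markers tested 2 were higher and 3 lower, with Col3a1 at -1.43 on the log2 scale, and both brown fat markers tested were higher (Pparg, 1.96, and Fabp4, 1.09). Their part in the result was not tested.

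RA for 72 h was compared with RA for 12 h, which asks what changed between the 2 times of treatment. Here Ndufb6 and Ndufa5 were higher (3.17% of members, against 2.92% of all genes) and Uqcrh was lower (1.59%, against 2.92%), so that 4.76% of members and 5.84% of all genes were called in either direction. By the unadjusted p, 10 members (15.9%) passed, against 18.9% of all genes, and 0 passed the rule with 2-fold, against 1.5%. The median log2 change was -0.010 for members and -0.002 for all genes. Of the 9 fibroblast markers tested 1 was higher and 3 were lower, with a median log2 change of -0.46, and of the 2 brown fat markers tested 1 was higher, with a median of 0.61. Their part in the result was not tested. This comparison shares its RA libraries with the other 2, so the 3 are not independent of one another.

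**Figure D2:**
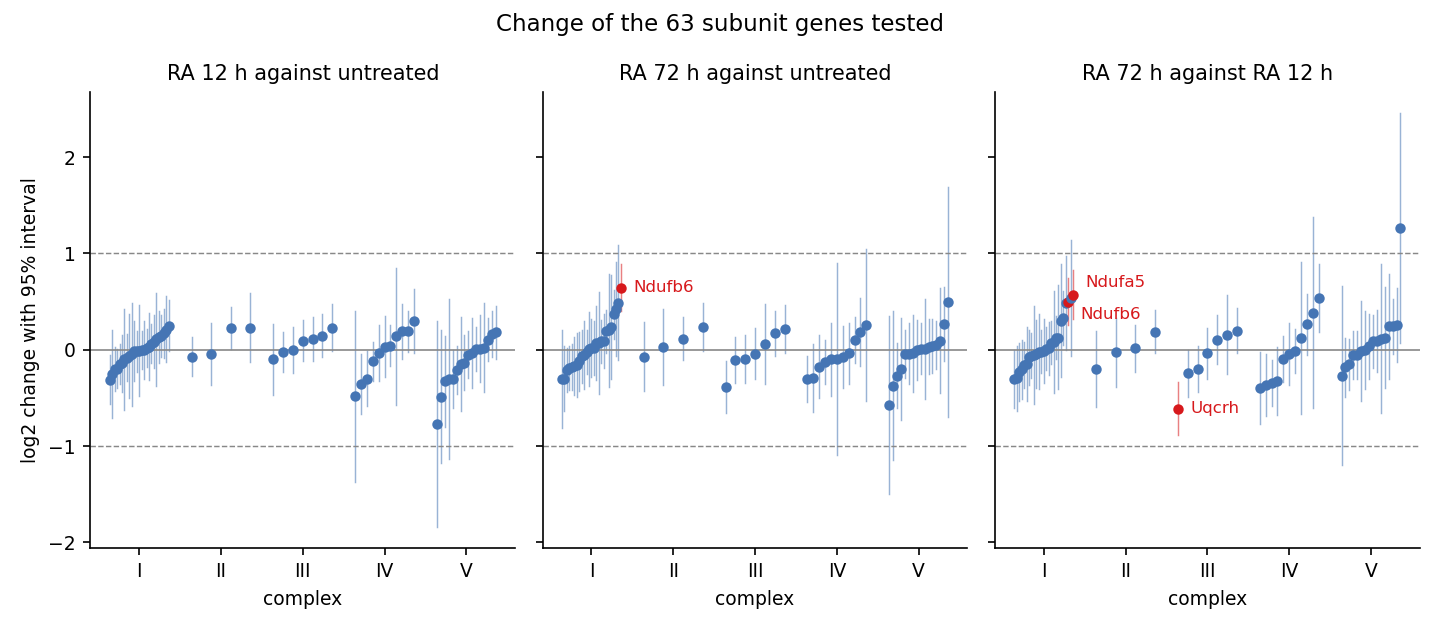
Log2 change with its 95% interval (limma) for each of the 63 subunit genes tested, by complex, in the 3 comparisons, with 1 point per gene and dashed lines at a 2-fold change. Red points with names are the genes called at an adjusted p below 0.05: none at RA 12 h, Ndufb6 at RA 72 h against untreated, and Ndufb6, Ndufa5 and Uqcrh at RA 72 h against RA 12 h.

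Ndufb6 (ENSMUSG00000071014, chr4:40217624-40226454, minus strand) codes for an accessory subunit in the membrane arm of complex I and had the highest level per kb of that complex, 18784.1 normalised reads. It was listed at 10646.4, 9521.0 and 11365.6 normalised reads in untreated cells, 11560.3, 11517.6 and 11671.6 at RA 12 h, and 16600.8 and 16146.3 at RA 72 h. Both 72 h libraries lay above all 6 others, and the RA 12 h libraries lay just above the untreated ones. The means were 10511.0 ± 929.7 (SD, n = 3), 11583.2 ± 79.5 (n = 3) and 16373.5 ± 321.4 (n = 2). At 72 h the log2 change against untreated was 0.64 ± 0.11 (SE), or 1.56-fold (limma, adjusted p 0.00226). Against RA 12 h it was 0.50 ± 0.11, or 1.41-fold (limma, adjusted p 0.0203). Among side 1 libraries the changes against untreated and against RA 12 h were 0.68 and 0.47, and among side 2 libraries they were 0.55 and 0.525. The call against RA 12 h was lost without RA 12 h replicate 1 (0.50, adjusted p 0.0771) or 2 (0.50, 0.0877) and without RA 72 h replicate 1 (0.48, 0.149) or 2 (0.52, 0.119), by the same limma fit. It was also lost with no filter (adjusted p 0.0829), with no variance trend (0.0628) and with the replicate number as a block (0.0541).

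Ndufa5 (ENSMUSG00000023089, chr6:24468666-24478013, minus strand) codes for an accessory subunit of the matrix arm of complex I. It was listed at 1747.5, 1847.4 and 1537.1 normalised reads in untreated cells, 1399.5, 1535.8 and 1518.4 at RA 12 h, and 2024.6 and 2397.4 at RA 72 h. The 72 h libraries were the highest, and the RA 12 h libraries lay just below the untreated ones. The log2 change from RA 12 h to RA 72 h was 0.57 ± 0.12 (SE), or 1.485-fold (limma, adjusted p 0.0116). It was 0.66 among side 1 libraries and 0.465 among side 2 libraries. Against untreated cells it was 0.37 ± 0.12 (adjusted p 0.0634 by limma), which did not pass. The call was lost without RA 12 h replicate 1 (0.53, adjusted p 0.0588 by limma) and without RA 72 h replicate 2 (0.45, 0.184), and also with no variance trend (adjusted p 0.0642).

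Uqcrh (ENSMUSG00000063882, chr4:115739570-115747676, minus strand) codes for the hinge protein of complex III, which lies beside cytochrome c1. It was listed at 4237.8, 3336.8 and 3839.5 normalised reads in untreated cells, 4716.9, 4690.2 and 3935.0 at RA 12 h, and 2949.6 and 2852.0 at RA 72 h. Here the 72 h libraries were the lowest of all, while the untreated and RA 12 h libraries overlapped. The log2 change from RA 12 h to RA 72 h was -0.61 ± 0.13 (SE), or 0.655-fold (limma, adjusted p 0.0113). It was -0.46 among side 1 libraries and -0.67 among side 2 libraries. Against untreated cells the change of -0.385 ± 0.13 did not pass (adjusted p 0.0700 by limma). The call was lost without RA 12 h replicate 1 (-0.57, adjusted p 0.0580 by limma) or 2 (-0.57, 0.0674) and without RA 72 h replicate 1 (-0.64, 0.0762) or 2 (-0.59, 0.108), and also with no variance trend (adjusted p 0.0651).

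**Figure D3:**
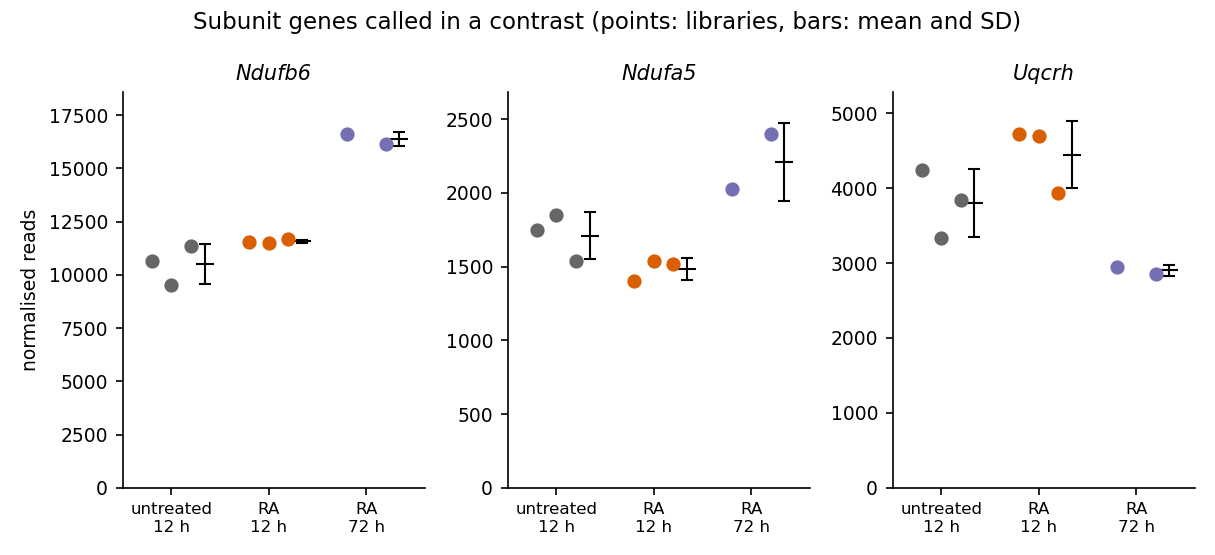
Normalised reads of Ndufb6, Ndufa5 and Uqcrh in each of the 8 libraries, by group, on axes that start at 0, with 1 point per library and the mean and SD as bars beside the points. The 2 libraries of RA 72 h lie above all others for Ndufb6 and Ndufa5 and below all others for Uqcrh.

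The core subunits of complex I described here gave no call in any comparison. Ndufv1, which holds the site of NADH oxidation, had means of 5228.0 ± 1251.0 normalised reads in untreated cells, 5254.6 ± 474.3 at RA 12 h and 5218.1 ± 1105.5 at RA 72 h (SD, n = 3, 3 and 2). Ndufs1, the large iron-sulfur subunit, had 503.2 ± 18.3, 554.2 ± 59.4 and 450.9 ± 85.8. Over the 25 members of complex I tested, the median log2 change was -0.01 at RA 12 h and 0.02 at RA 72 h against untreated.

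In complex II, which also serves the citric acid cycle, all 4 genes were tested and 0 were called. The flavoprotein gene Sdha had 2185.0 ± 201.3 normalised reads in untreated cells, 2546.8 ± 194.7 at RA 12 h and 2569.2 ± 53.4 at RA 72 h. Its log2 changes of 0.22 and 0.24 did not pass (limma, adjusted p 0.30 and 0.225). The iron-sulfur subunit Sdhb had 2642.4 ± 685.3, 3045.1 ± 368.9 and 2658.9 ± 484.4. The membrane anchors Sdhc and Sdhd had log2 changes of -0.07 and -0.05 at 12 h and of 0.12 and -0.07 at 72 h against untreated.

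The catalytic subunits of complex III gave no call in any comparison. Cyc1, for cytochrome c1, had 3203.5 ± 320.3 normalised reads in untreated cells, 3192.6 ± 299.1 at RA 12 h and 3111.3 ± 299.6 at RA 72 h. Uqcrfs1, for the Rieske iron-sulfur protein, had 966.3 ± 88.4, 1069.1 ± 77.2 and 900.8 ± 18.5. Its RA 72 h libraries (887.8 and 913.9) lay below all those of RA 12 h (985.5 to 1137.8), and this log2 change of -0.24 ± 0.11 (SE) did not pass (limma, adjusted p 0.269). The core proteins Uqcrc1 and Uqcrc2 changed by 0.09 and -0.10 at 12 h and by -0.10 and 0.06 at 72 h against untreated, on the log2 scale.

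In complex IV, Cox8a and Cox7a2 had the highest levels per kb of exon, 26150.1 and 15312.3 normalised reads. Cox7a2, a supernumerary subunit, was listed at 12193.3, 11365.6 and 12578.4 normalised reads in untreated cells, 8693.5, 7986.9 and 12091.1 at RA 12 h, and 14876.6 and 12578.4 at RA 72 h. RA 12 h replicates 1 and 2 lay below all other libraries, and replicate 3 lay within the untreated range. The log2 change was -0.35 at 12 h (limma, adjusted p 0.239) and 0.54 from 12 h to 72 h (adjusted p 0.0733), and neither passed. Without RA 12 h replicate 3 both passed, at -0.53 (limma, adjusted p 0.0293) and 0.715 (adjusted p 0.00980). Without untreated replicate 3 the second passed as well (0.54, adjusted p 0.0402 by limma). Among side 1 libraries, which include RA 12 h replicate 3, the 2 changes were 0.039 and 0.057. Among side 2 libraries they were -0.594 and 0.836. Cox4i1 had 5353.8 ± 871.5 normalised reads in untreated cells, 6085.6 ± 732.3 at RA 12 h and 4713.6 ± 477.1 at RA 72 h, and Cox5a had 4533.9 ± 394.0, 5174.0 ± 281.9 and 4836.7 ± 117.1. None of the changes of these 2 genes passed.

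In complex V the catalytic subunits Atp5a1 and Atp5b had means of 9390.3 ± 466.9 and 8984.6 ± 607.0 normalised reads in untreated cells, 8163.3 ± 1090.8 and 9657.1 ± 707.4 at RA 12 h, and 9615.7 ± 866.0 and 9312.6 ± 590.6 at RA 72 h. Their changes at 72 h against untreated were 0.03 and 0.05 on the log2 scale. Atp5f1, subunit b of the peripheral stalk, had 20127.9 ± 2825.6, 18349.3 ± 2401.2 and 19456.2 ± 754.0 in the 3 groups. Per kb of exon it stood at 4699.9, behind Atp5g3 and, at 6294.3, the small membrane subunit Atp5k. That order depends on the division by length. In reads Atp5f1 had the highest mean of the complex, 19293.0, against 3877.3 for Atp5k. Atp5c1, the central stalk subunit gamma, had 288.9 ± 51.4, 290.3 ± 46.7 and 345.9 ± 52.1, or 159.2 per kb against 2866.5 for Atp5a1, and its tag matched 3 places in the genome. The widest change of any member tested was in Atp5l, a small membrane subunit. It was listed at 15.0, 10.4 and 9.88 normalised reads in untreated cells, 4.12, 3.38 and 16.8 at RA 12 h, and 22.1 and 12.5 at RA 72 h. Its log2 change of 1.26 from RA 12 h to RA 72 h did not pass (limma, adjusted p 0.234).

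The reads were also summed by complex. Complex I held 0.702% ± 0.028 of all normalised reads in untreated cells, 0.695% ± 0.018 at RA 12 h and 0.743% ± 0.0058 at RA 72 h (SD, n = 3, 3 and 2). Its RA 72 h libraries (0.748% and 0.739%) lay above all 6 others (0.677% to 0.733%). Without Ndufb6 they stood at 0.572% and 0.568%, within the range of the others (0.553% to 0.613%). In complex V the shares were 0.689% ± 0.049, 0.655% ± 0.023 and 0.682% ± 0.038. In complex IV the untreated libraries (0.615% to 0.635%) lay above those of RA 12 h (0.555% to 0.610%) and of RA 72 h (0.596% and 0.606%). Its highest genes weigh most in this sum. Cox8a had means of 15503.3 normalised reads in untreated cells and 12514.1 at RA 12 h, and Cox7a2 12045.8 and 9590.5, neither called. Of the 11 complex IV members tested, 6 had a positive and 5 a negative log2 change at RA 12 h. Among the positive ones were Cox4i1 (0.191) and Cox5a (0.193), neither called. The share without Cox8a and Cox7a2 was not computed, so the separation of the sums is not read as a change of the complex. For all 82 genes the RA 12 h libraries (2.27% to 2.33%) lay below the untreated (2.35% to 2.38%), and the 72 h libraries (2.36% and 2.40%) did not. This sum also contains Cox8a and Cox7a2, and its separation is likewise not read as a change of the members as a set. Of the 63 members tested, 28 had a positive and 35 a negative log2 change at RA 12 h.

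In 44 of the 63 members tested (69.8%) the range over the 3 untreated libraries exceeded both changes under RA, against 62.9% of all genes tested. The members were also compared along the axis that separates side 1 from side 2. In 15 members (23.8%) every library of side 1 was above every library of side 2 in each of the 3 groups, against 19.3% of all genes tested, and in 14 (22.2%) every one was below, against 19.1%. Both shares are near those of all genes. The sides were drawn from the same data, with the members among the genes used, so the counts are a description. The genes named next were chosen after their values were seen.

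Sdhb was listed at 2129.5, 2376.9, 2619.2 and 2316.4 normalised reads in the side 1 libraries, of which the first 2 were untreated and the others from RA 12 h and RA 72 h. In the side 2 libraries, of which the first was untreated, the next 2 from RA 12 h and the last from RA 72 h, it was at 3420.8, 3264.6, 3251.5 and 3001.4. All 4 libraries of side 1 thus lay below all 4 of side 2. Ndufv1 had 4907.9, 4168.2, 4716.9 and 4436.4 on side 1 and 6608.0, 5613.6, 5433.2 and 5999.8 on side 2, in the same order of libraries, and again did not overlap. Ndufa4 went the other way, with 3820.8, 5312.9, 3680.1 and 3741.6 on side 1 and 2681.8, 2904.2, 3011.1 and 2515.9 on side 2. Uqcrc2 did too, with 1394.6, 1668.4, 1449.2 and 1676.8 on side 1 and 1074.9, 1071.0, 1312.6 and 1192.6 on side 2. Side 1 minus side 2 was -0.40 for Sdhb, -0.37 for Ndufv1, 0.50 for Ndufa4 and 0.39 for Uqcrc2 on the log2 scale, while their larger changes under RA were 0.228, 0.030, 0.305 and 0.099 in size. In complex II, Sdhb (-0.40) and the anchor subunit Sdhd (0.27) lay in opposite directions along the axis. The 3 called genes had smaller differences, of -0.06 for Ndufb6, 0.15 for Ndufa5 and -0.11 for Uqcrh.

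**Figure D4:**
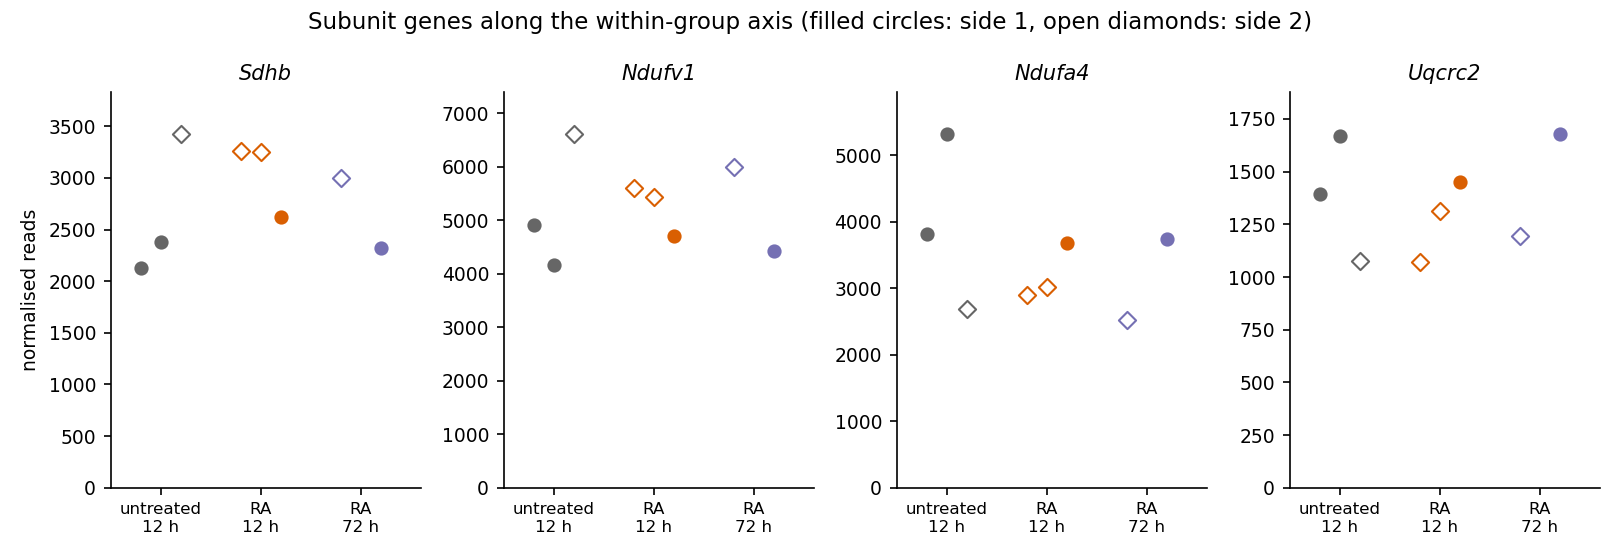
Normalised reads of Sdhb, Ndufv1, Ndufa4 and Uqcrc2 in each of the 8 libraries, by group, on axes that start at 0. Within each group the side 1 libraries (filled circles) lie below the side 2 libraries (open diamonds) for Sdhb and Ndufv1 and above them for Ndufa4 and Uqcrc2.

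The subunits encoded in mitochondrial DNA complete complexes I, III, IV and V. Of 13 such genes 5 were in the table and tested (mt-Nd1, mt-Nd2, mt-Nd5, mt-Cytb and mt-Co2), and 0 were called in any comparison. Summed, they were between 223298.4 and 228500.1 normalised reads in untreated cells, 215019.5 and 232674.9 at RA 12 h, and 200007.8 and 201529.4 at RA 72 h. The 2 libraries of RA 72 h lay below the others in this sum, which is mostly mt-Nd1 and mt-Cytb. These 2 genes were at the top of the table, where the normalisation gives libraries the same few values by rank. mt-Cytb was at 65327.5 in the first library of RA 72 h and at 82395.9 or 93377.5 in the other 7. mt-Nd1 was at 93377.5 in the second library of RA 72 h and at 102782.0 or 110139.0 in the others. Each of these low values was 1 place in the ranking below the next, so the gap in the sum contains fixed steps and its size is not a measured difference. The median log2 change of the 5 genes, -0.23 at RA 72 h against untreated, was that of mt-Cytb. mt-Nd5 had the largest change of the 5, -0.34 (limma, adjusted p 0.105).

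Genes of related functions were counted list by list. Over all genes tested, the shares called were 2.87% higher and 1.5% lower at RA 12 h, 6.08% and 5.41% at RA 72 h against untreated, and 2.92% and 2.92% against RA 12 h. Of 47 assembly factor symbols 22 were in the table and 21 were tested. Of these 1 (4.76%) was higher at RA 72 h, against untreated and against RA 12 h, and 0 were lower. It was Nubpl, which delivers iron-sulfur clusters to complex I, with 0.50 and 0.55 on the log2 scale (limma, adjusted p 0.0259 and 0.0249). Of the 17 regulators of mitochondrial gene expression and mitochondrial DNA factors tested, 0 were called in any comparison. Nrf1 and Gabpa, activators of many respiratory genes, had log2 changes of 0.21 and 0.02 at 72 h against untreated. Tfam, which packs mitochondrial DNA, had -0.15 and Esrra 0.06. Ppargc1a, the coactivator of mitochondrial biogenesis, was near the filter, at 5.88 to 16.5 normalised reads. Of 69 mitochondrial ribosomal protein genes tested, 1 (1.45%) was lower at RA 72 h against untreated (Mrpl21, -0.52, limma adjusted p 0.0124) and 1 against RA 12 h (Mrps31, -0.63, adjusted p 0.0320), and 0 were higher.

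Among 19 genes of electron carriers and ATP export tested, 1 (5.26%) was higher in each of the 3 comparisons and 0 were lower. Atpif1, for the inhibitor of the ATP synthase, was listed at 1021.9, 839.1 and 706.9 normalised reads in untreated cells, 1525.2, 1310.8 and 1044.1 at RA 12 h, and 830.6 and 875.9 at RA 72 h. All RA 12 h libraries lay above the others. Its log2 change at 12 h was 0.59 (limma, adjusted p 0.0414), and from 12 h to 72 h it was -0.58 (adjusted p 0.0629), which did not pass. Coq7, of ubiquinone synthesis, was higher at RA 72 h, by 0.55 against untreated and 0.59 against RA 12 h (limma, adjusted p 0.00437 and 0.00557).

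The neighbouring pathways of fuel use were counted in the same way. Of 17 citric acid cycle genes tested 0 were called against untreated, and Idh3a was lower at RA 72 h than at RA 12 h (-0.46, limma, adjusted p 0.0203). Of 16 glycolysis genes 3 (18.8%, against 2.87% of all genes) were higher at RA 12 h, namely Hk2 (1.03), Gpi1 (0.76) and Ldhb (0.61), with adjusted p of 4.64e-05, 0.000615 and 0.0141 by limma. The median log2 change of the 16 was -0.037, against -0.016 over all genes, so the list as a whole did not rise at 12 h. At RA 72 h Hk2 (1.01) and Gpi1 (0.46) were still higher than in untreated cells and Eno2 (-0.97) was lower (limma, adjusted p 0.000101, 0.0229 and 0.0271), which is 12.5% higher and 6.25% lower, against 6.08% and 5.41% of all genes. The median of the list was then 0.194, against -0.020 over all genes. Of 11 hypoxia response genes tested 2 were higher and 1 lower at RA 12 h (18.2% and 9.09%), and 3 were higher and 1 lower at RA 72 h against untreated (27.3% and 9.09%), with Hk2 in both lists. Besides Hk2, the higher ones were Vegfa at RA 12 h (0.65, limma, adjusted p 0.0122) and P4ha1 (0.61, adjusted p 0.0237) and Pdk1 (0.78, adjusted p 0.0144) at RA 72 h. Ndrg1 was the lower one both times (-0.72 and -0.88). The median log2 change of the list was -0.061 at RA 12 h and 0.198 at RA 72 h against untreated.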

How the data were processed

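The members and the gene lists were chosen with earlier results of these data known. The deposited values are normalised reads of Ensembl genes in 8 libraries, made by the authors on mm9. The sorted values of the 8 columns are identical, which is quantile normalisation. The values are not counts, so no count model was used, and depth and counting error are unknown. The labels describe DpnII tags read over 18 bases, and the study's methods fragmented RNA, Tophat and Cufflinks. The authors' log2 ratios of group averages were not used.

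After the transform log2(value + 1), genes whose mean reached 10 were kept, and the 3 groups were fitted together with limma 3.58.1 (R 4.3.3) with a variance trend. A fold change on this scale understates the change of low genes. The p-values are two-sided and adjusted (Benjamini-Hochberg) over all 12673 genes kept. A gene was called at an adjusted p below 0.05. Nothing says that libraries of a group came from separate cultures, so the p-values measure only the spread between these libraries, which may be technical. The script was tested on simulated data.

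Levels per kb divide by the exonic length of the gene on NCBIM37, in which all 82 members were found. If each messenger RNA was read as a single tag, as the labels describe, reads would not grow with length. The levels per kb would then rank genes partly by their length, and comparisons between genes on that scale carry this limit. A DpnII tag was taken as the last GATC of the longest protein-coding transcript and the next 17 bases, and exact matches were counted on both strands of the genome. The labels give reads of 18 bases, against 21 in these tags, so a tag found nowhere else may match more places as read. The longest transcript may also not be the main one of a gene, and other transcripts were not used for the classes. The axis is the first principal component of the residuals from the group means, and a library's side is the sign of its loading. Tags on chromosome 18 and the values of 1 core subunit are not reported here. Genes named are the core subunits, isoform pairs, called members, the highest and lowest of each complex, members below the filter, called genes of the lists, and a few regulators. Other names were chosen after their values were seen. Alternatives were another pseudocount, no filter, no variance trend, median-of-ratios scaling, a fit of 2 groups only, the replicate number as a block, the side as a term, removal of the trend with gene span, and each library left out.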

Additional observations from a re-analysis of the deposited data

Results flagged for a closer look

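In 3 members the change at 72 h differed from the change at 12 h, each against the same untreated libraries, by the test of RA 72 h against RA 12 h. These were Uqcrh (-0.612 on the log2 scale), Ndufa5 (0.570) and Ndufb6 (0.499), with adjusted p of 0.0113, 0.0116 and 0.0203 by limma. For Uqcrh the change was 0.227 at 12 h and -0.385 at 72 h against untreated, and for Ndufa5 it was -0.201 and 0.369. None of these 4 changes passed (limma, adjusted p 0.343, 0.0700, 0.371 and 0.0634), so no direction against untreated is drawn from them. For Ndufb6 the changes were 0.144 (adjusted p 0.519) and 0.643 (adjusted p 0.00226). With each of the 8 libraries left out in turn, the difference between the 2 times lost its call in 4 cases for Uqcrh, in 2 for Ndufa5 and in 4 for Ndufb6, and all 3 lost it with no variance trend.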

How the results depend on the processing

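The counts of called members are small and moved by a few genes. With no filter, 1 member was lower at RA 12 h (Cox6b2, at 4.12, 2.88 and 3.38 normalised reads in untreated cells and at the lowest value of the table in all 3 RA 12 h libraries), 1 was higher at RA 72 h against RA 12 h, and the median change at 72 h against untreated was -0.038. With no variance trend, 0 were higher and 0 lower at RA 72 h against RA 12 h. With the side as a term, 2 were higher and 2 lower at RA 72 h against untreated, and 4 and 4 against RA 12 h. Besides those already called, these were Ndufa5, Uqcrh and Cox7b against untreated and Cox7a2, Ndufb10, Cox7b, Cox4i1 and Cox7a2l against RA 12 h. With the trend with gene span removed, 2 were higher at 72 h against untreated, and the medians against untreated were 0.023 at 12 h and 0.035 at 72 h. Under the rule with 2-fold, 0 were called in each comparison. With each library left out in turn, the number called was 0 to 1 lower at 12 h, 1 to 2 higher and 0 to 2 lower at 72 h against untreated, and 0 to 4 higher and 0 to 1 lower against RA 12 h. The calls gained were Atp5k (-0.446, lower at 12 h) and Ndufa3 (-0.451) and Ndufa4 (-0.554, both lower at 72 h against untreated) without untreated replicate 3, Ndufa5 (0.427) and Uqcrh (-0.476) at 72 h against untreated without untreated replicate 2, Atp5l (1.90, higher against RA 12 h) without RA 12 h replicate 3, and those of Cox7a2 given above. No member was higher against RA 12 h without RA 12 h replicate 1 or RA 72 h replicate 2. The medians then lay from -0.043 to 0.013, from -0.042 to 0.033 and from -0.042 to 0.077. The cause of these moves was not tested. Ndufb6 was called higher at 72 h against untreated under every alternative run except the rule with 2-fold.

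Between libraries with the same replicate number, the correlations of the deviations from the group means ran from -0.474 to 0.420. They cannot decide whether the numbers pair the libraries, since the groups are small and the deviations largely follow the shared axis. With the number as a replicate block the counts were 0 and 0, 1 and 0, and 2 and 1, higher and lower, in the 3 comparisons. At RA 72 h against RA 12 h, Cox7a2 (0.641, limma, adjusted p 0.0384) took the place of Ndufb6 (0.531, adjusted p 0.0541).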

Other observations

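The promoters of the members were searched for motifs of factors known to act on respiratory genes, on both strands, from 250 bases before to 50 after the start of the gene as RefSeq gives it on GRCm38.p6. A promoter was found for 66 of the 82 members and for 27025 genes in all. That background was not limited to the 12673 genes tested, so it also holds genes with few or no reads here. The shares below therefore do not set the members against genes of like expression. The palindromic NRF1 motif was in 5 member promoters (7.58%), against 1.07% of all promoters. The ETS family motif CCGGAAG was in 16 (24.2%), against 9.93%, and the YY1 motif AAGATGGC in 11 (16.7%), against 3.19%. Of the 3 called genes, Ndufb6 and Uqcrh hold the ETS motif and lay in opposite directions at RA 72 h, and Ndufa5 holds none of the 3. A match is a description of the letters and not a binding site.

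Of the mitochondrial ribosomal protein genes, 69 of 76 passed the filter on low values, against 63 of the 82 subunit genes.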
